A study of Mus musculus with 6 samples.

Results

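Metallothioneins and the zinc transporters that handle zinc, manganese and iron in the liver were examined as a group of 7 genes: Mt1 and Mt2, the zinc exporter gene Slc30a1, the manganese exporter gene Slc30a10, and the importer genes Slc39a5, Slc39a8 and Slc39a14. They were chosen by symbol for this known role, and each symbol matched 1 of the 23474 Ensembl mouse gene identifiers in the deposited table. Liver mRNA came from male C57BL/6J mice aged 17 weeks. In the BT group the mice ate a high-fat diet containing 1.5% (w/w) Bangpungtongseong-san extract, a traditional herbal formula tested here in fatty liver, and in the HFD group they ate the high-fat diet alone. Both groups had 10 mice, began their diet at 5 weeks of age and kept it for 12 weeks, and 3 libraries of each were analysed. No chow-fed group was analysed here, so the HFD level cannot be set beside that of mice without the high-fat diet. Whether each library holds RNA of 1 mouse or of several is not stated, and p-values therefore describe only how far these libraries scatter. The sample titles name no library sets. If the diets were prepared as separate sets, their effect and that of diet cannot be told apart.

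Zinc in hepatocytes is held at a low free level by import, export and binding. Proteins of the SLC39 family (ZIP) bring zinc into the cytosol, those of the SLC30 family (ZnT) move it out of the cytosol or into organelles, and metallothioneins are small cysteine-rich proteins that bind it. Free zinc activates the transcription factor MTF1, which acts on metal response elements in the promoters of Mt1, Mt2 and Slc30a1. Metallothioneins also bind copper and cadmium and are induced by glucocorticoids and by inflammation, and Slc39a14 is known as an importer that interleukin-6 induces in liver.

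The promoters of Mt1, Mt2 and Slc30a1 are shown because these 3 genes are textbook MTF1 targets, and because the first 2 varied together across the libraries while Slc30a1 did not follow them. Each sequence holds the 250 bases before the RefSeq gene start (GRCm38.p6, plus strand). Capitals mark the core of the metal response element, searched as TGCACNC and TGCGCNC on both strands, so that an opposite-strand match reads as its reverse complement.
Mt1, chr8:94178839-94179088: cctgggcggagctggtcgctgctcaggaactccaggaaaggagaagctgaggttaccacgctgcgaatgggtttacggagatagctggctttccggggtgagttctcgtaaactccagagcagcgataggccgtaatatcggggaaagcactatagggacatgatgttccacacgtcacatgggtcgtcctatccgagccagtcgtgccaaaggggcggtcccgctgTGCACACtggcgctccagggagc
Mt2, chr8:94172368-94172617: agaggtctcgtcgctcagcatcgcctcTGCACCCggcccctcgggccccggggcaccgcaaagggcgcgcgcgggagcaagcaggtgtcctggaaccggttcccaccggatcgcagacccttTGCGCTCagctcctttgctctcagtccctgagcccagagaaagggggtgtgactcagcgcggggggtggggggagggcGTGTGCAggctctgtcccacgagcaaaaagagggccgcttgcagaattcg
Slc30a1, chr1:191906531-191906780: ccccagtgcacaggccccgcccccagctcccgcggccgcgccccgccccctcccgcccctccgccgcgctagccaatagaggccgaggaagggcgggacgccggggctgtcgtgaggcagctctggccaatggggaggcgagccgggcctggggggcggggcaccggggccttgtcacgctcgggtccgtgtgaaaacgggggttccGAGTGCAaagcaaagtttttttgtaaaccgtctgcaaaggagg
Over 300 bases, from 250 before to 50 after the start, Mt1 held 3 matches, Mt2 held 4 and Slc30a1 held 2. Of these, 2 in Mt1, 1 in Mt2 and 1 in Slc30a1 lay after the RefSeq start and are not printed. The unprinted Mt2 match, at bases 5 to 11, still lies before the start of Mt2 in the GENCODE M21 annotation, 94172664. Which start is used in liver was not tested, so the printed bases may not hold every match upstream of it. Among all 32851 windows of that length in the RefSeq table, 25.7% held at least 1 match, 1.97% at least 3 and 0.517% at least 4. The window of Slc30a10 held 3 matches, a pair of them overlapping on opposite strands, and the windows of Slc39a5 and Slc39a8 held 0 or 1. A match is a description of the letters and not a site. Of the 7 members, 6 had a window in the table.

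Expression was given as FPKM, the fragments per kilobase of transcript and per sequencing depth. A rough depth, taken from low values inside a fixed window, came to 14.0 to 15.1 M fragments in the BT libraries and 13.8 to 15.8 M in the HFD libraries. The window itself bounds this figure, so it cannot show the true depth or that the diets were alike in depth. Of 10476 genes tested, 1398 (13.3%) passed the test between the diets, 630 (6.01%) as higher and 768 (7.33%) as lower in BT. With median-of-ratios scaling the split was 459 higher and 862 lower, on rescaling to TPM it was 614 higher and 557 lower, and without HFD replicate 3 it was 855 higher and 681 lower. Genes with short transcripts were lower in BT as a class: the 645 tested genes under 1000 bases had a median log2 change of -0.49, and 43.6% of them were called lower, whereas the 3280 genes of 4000 bases and over had a median of 0.21. Of 8 hepatocyte markers tested, 1 fell (Ttr) and none rose. Alb stood at 24213 to 26535 FPKM in BT and at 22791 and 27895 FPKM in HFD replicates 1 and 2. HFD replicate 3 lists 0 for both Alb and mt-Co1, which can be a failed estimate. In HFD replicates 1 and 2 mt-Co1 stood at 45802 and 53659 FPKM. Rescaling to TPM divides by a library sum in which both genes then count as 0 for HFD replicate 3. The part of this in the TPM results was not tested. Clec4g of the sinusoidal endothelium and Lrat of stellate cells are listed at 0 in all 6 libraries. In bulk tissue fewer cells of a type and less RNA per cell cannot be told apart.

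Between the diets 1 of the 7 members passed the test, which is 14.3% against 13.3% of all genes tested. Slc39a5 fell in BT, and the other 6 did not pass. The median log2 change of the members was -0.22, against 0.07 over all genes tested, with 2 members positive and 5 negative. Separation of all BT from all HFD values was seen in 1 of 7 members, as lower, against 39.3% of all genes tested in either direction and 16.1% as lower. The share of members called is thus near that of all genes tested, and so is the share separated as lower. Separation in either direction was less frequent among the members than among all genes tested, though with 7 members such shares are coarse. All changes below are BT minus HFD in log2(FPKM + 1), where the added 1 shrinks the change of weakly expressed genes, and adjusted p-values are from limma over all genes tested.

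**Figure D1:**
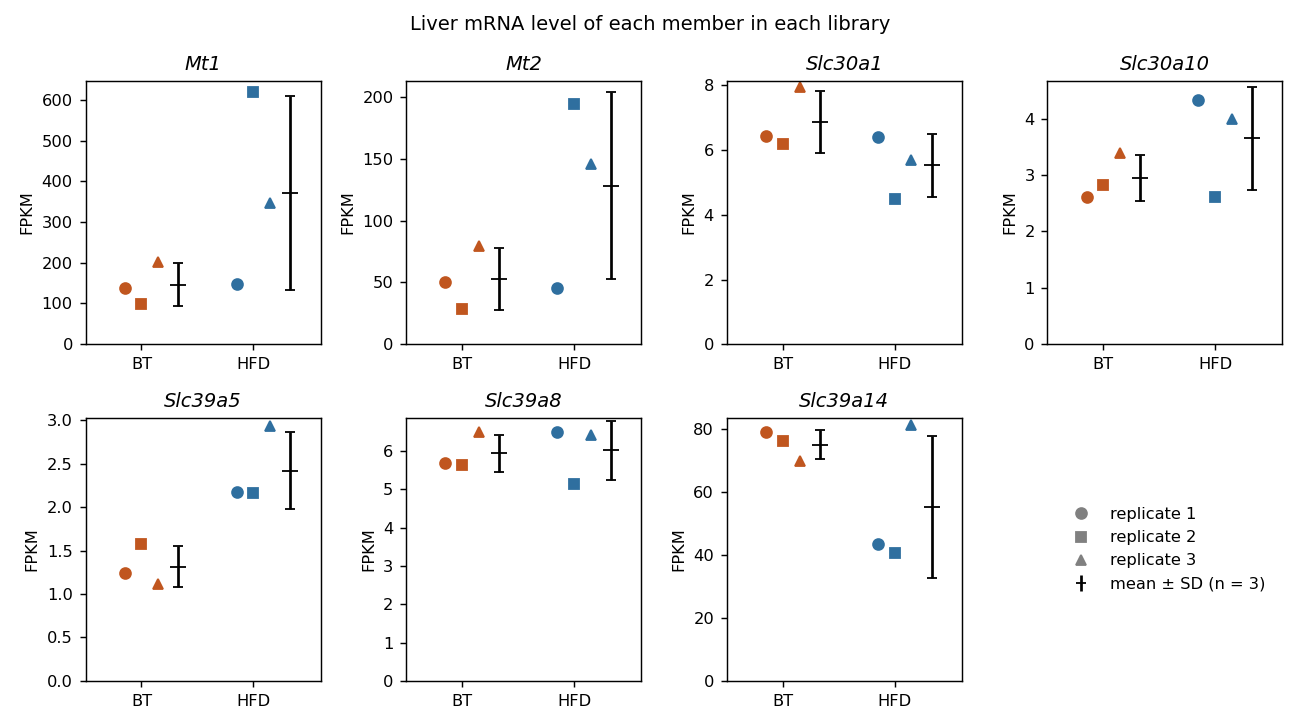
FPKM (vertical axes, from 0) of each member in the 3 BT and 3 HFD libraries, 1 point per library, with the mean ± SD beside the points. The groups are apart for Slc39a5 alone, and Mt1 and Mt2 show HFD replicates 2 and 3 above all other libraries.

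By mean FPKM over the 6 libraries the order of levels was Mt1 (259), Mt2 (90.4), Slc39a14 (65.0), Slc30a1 (6.20), Slc39a8 (5.98), Slc30a10 (3.30) and Slc39a5 (1.87). FPKM is per length, so levels can be set beside each other. Mt1 exceeded Mt2 in every library. The range of Mt2 covered that of Slc39a14, and those of Slc30a1 and Slc39a8 overlapped, so these neighbours were not separated beyond their spread. The lowest pair, Slc30a10 and Slc39a5, overlapped in range, although Slc30a10 was higher within each library.

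Mt1 encodes the more abundant of the liver metallothioneins (ENSMUSG00000031765, protein-coding, chromosome 8, 94179082 to 94180327 in GENCODE M21 on GRCm38). It stood at 138, 97.6 and 203 FPKM in the BT libraries and at 147, 619.8 and 346 FPKM in the HFD libraries. HFD replicates 2 and 3 were above every BT library, while HFD replicate 1 lay inside the BT range. The mean was 146 ± 53.0 FPKM in BT and 371 ± 237 FPKM in HFD (SD, n = 3 each), 0.394 times as high in BT. The log2 change was -1.17 ± 0.47 (SE, 95% interval -2.24 to -0.10), with an adjusted p of 0.125.

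Mt2 (ENSMUSG00000031762, chromosome 8, 94172664 to 94173568) lies 5513 bases upstream of Mt1 on the same strand and encodes a protein of the same kind. Its level was 50.1, 28.8 and 79.3 FPKM in the BT libraries and 45.2, 194 and 145 FPKM in the HFD libraries. The pattern was that of Mt1, with HFD replicate 1 inside the BT range and the other HFD libraries above it. The log2 change was -1.14 ± 0.53 (95% interval -2.34 to 0.06), and it did not pass (adjusted p = 0.17). Exons of the antisense model Gm45774 cover 73.5% of the exon bases of Mt2, so its value is uncertain, since no strand setting is given. The longest exact run shared by the Mt1 and Mt2 transcripts is 20 bases, and no stretch of 50 bases in the Mt1 transcript recurs in a transcript of another gene.

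The pair kept a nearly fixed proportion while its level moved. Mt1 ranged 6.35-fold and Mt2 6.74-fold over the 6 libraries, whereas the ratio of Mt1 to Mt2 ranged 1.43-fold. That ratio averaged 2.90 ± 0.436 in BT and 2.94 ± 0.489 in HFD (SD, n = 3 each). Across the 6 libraries their log2(FPKM + 1) values had a Pearson's r of 0.98 (exact permutation p = 0.00278) and a Spearman's rho of 0.94 (exact permutation p = 0.0167). Adjusted over the 21 member pairs, the p for r was 0.0583 and that for rho 0.35 by the same exact test. Without HFD replicates 2 and 3, the farthest from the median of Mt1, r was 0.98, and with each diet centred on its own mean it was 0.97. The 2 genes share their libraries and a chromosome region.

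Whether the metallothioneins passed rested on 1 library. Without HFD replicate 1 both fell, Mt1 by 1.72 (adjusted p = 0.0224) and Mt2 by 1.77 (adjusted p = 0.0266). Without HFD replicate 2 the changes were -0.68 (adjusted p = 0.347) for Mt1 and -0.73 (adjusted p = 0.453) for Mt2. HFD replicate 1 also held the highest adipocyte marker level, with a summed FPKM of 3.001 over Adipoq, Plin1, Lep and Retn, against 0 to 0.293 in the BT libraries and 0.0901 and 0.256 in the other HFD libraries. The part of this marker difference in the Mt1 and Mt2 levels was not tested. When the dependence on transcript length and GC content was taken out of each library, the changes were -0.87 for Mt1 (adjusted p = 0.258) and -0.74 for Mt2 (adjusted p = 0.359). That correction rests on the longest protein-coding transcript, 1085 bases for Mt1 and 511 for Mt2. Mt1 has 3 annotated transcripts, and which of them prevails was not tested, so the corrected Mt1 value depends on this choice.

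**Figure D2:**
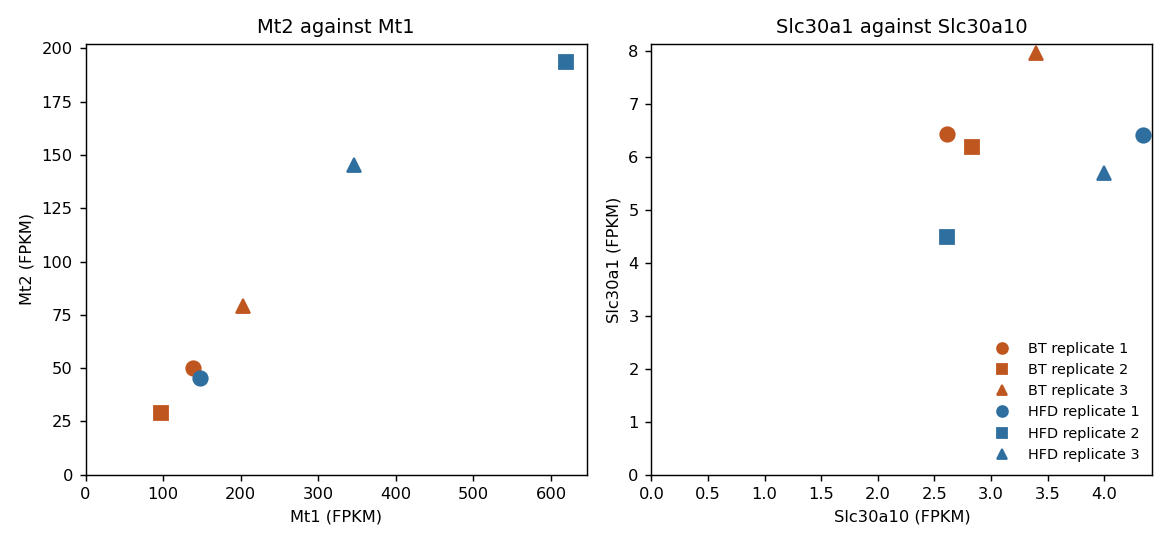
Left, Mt2 against Mt1, and right, Slc30a1 against Slc30a10 (FPKM, 1 point per library, colour by diet and shape by replicate number). Mt1 and Mt2 lie near 1 line through both diets. On the right the BT libraries lie above HFD replicate 2, the only HFD library of similar Slc30a10 level.

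Slc30a1 encodes ZnT1, the exporter of zinc at the plasma membrane (ENSMUSG00000037434, chromosome 1, 191906767 to 191913247). It was at 6.43, 6.20 and 7.96 FPKM in the BT libraries and at 6.42, 4.49 and 5.69 FPKM in the HFD libraries. BT replicates 1 and 3 lay above all HFD libraries, the first by a narrow margin, and BT replicate 2 lay below HFD replicate 1. It differed by 0.27 ± 0.15 (95% interval -0.07 to 0.61), with an adjusted p of 0.239. With the length and GC trend removed the change was 0.05. Although Slc30a1 shares its regulator with the metallothioneins, its level did not follow theirs: r with Mt1 was -0.67 (exact permutation p = 0.16, 0.688 adjusted over the 21 pairs), rho was -0.49 (exact permutation p = 0.356), and r was 0.88 without HFD replicates 2 and 3, so the sign rests on those libraries.

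Slc30a10 encodes a manganese exporter that secretes manganese into bile (ENSMUSG00000026614, chromosome 1, 185454848 to 185468762). Antisense or non-coding models on the other strand cover 8.92% of the exon bases of Slc30a1 and 9.13% of those of Slc30a10. It was at 2.61, 2.83 and 3.40 FPKM in the BT libraries and at 4.34, 2.61 and 4.002 FPKM in the HFD libraries. HFD replicate 2 was as low as the lowest BT library, and the other HFD libraries were above all of BT. Its log2 change was -0.22 ± 0.17 (95% interval -0.61 to 0.17), with an adjusted p of 0.395. With the length and GC trend removed the change of Slc30a10 was -0.45, which did not pass either (adjusted p = 0.0742).

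Within a library, however, the balance of these exporters differed. The ratio of Slc30a1 to Slc30a10 was 2.46, 2.19 and 2.34 in the BT libraries and 1.48, 1.72 and 1.42 in the HFD libraries. All BT ratios were above all HFD ratios, with means of 2.33 ± 0.137 in BT and 1.54 ± 0.159 in HFD (SD, n = 3 each). A ratio within a library does not depend on how libraries are scaled, and the transcripts are of like length, 5244 and 5836 bases. This ratio was chosen after the values were known, and with 3 libraries against 3 an exact two-sided permutation test cannot go below p = 0.1, so no test is given. It shows unequal change and not which gene moved.

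Slc39a5 encodes ZIP5, a zinc importer of the basolateral membrane known from intestine and pancreas (ENSMUSG00000039878, chromosome 10, 128395931 to 128401229, minus strand). It was at 1.24, 1.58 and 1.12 FPKM in the BT libraries and at 2.17, 2.16 and 2.94 FPKM in the HFD libraries. Every BT library was below every HFD library. The mean was 1.31 ± 0.237 FPKM in BT and 2.42 ± 0.446 FPKM in HFD (SD, n = 3 each), 0.542 times as high in BT. The log2 change was -0.56 ± 0.14 (95% interval -0.89 to -0.23, adjusted p = 0.0399).

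Slc39a5 was the least abundant member. At the rough depth its values would stand for 31.8 to 48.2 fragments in the BT libraries and 60.1 to 92.6 in the HFD libraries, numbers that rest on the window used for depth. It missed the threshold in each of the 6 fits that left out 1 library. Without BT replicates 1, 2 and 3 in turn the adjusted p was 0.134, 0.0729 and 0.11, and without HFD replicates 1, 2 and 3 it was 0.0511, 0.0727 and 0.0632. On rescaling to TPM it was 0.0733, without a filter on low values 0.0813, and after removal of the length and GC trend 0.0833 (change -0.45). Among 6 markers of pancreatic acinar cells, where Slc39a5 is also expressed, Ctrb1, Cpa1, Pnlip and Cel are listed at 0 in all 6 libraries. The summed marker level, most of it Cela1, was 2.70 to 4.35 FPKM in BT and 5.16 to 6.32 FPKM in HFD. Cela1 itself fell by 0.67 (adjusted p = 0.0322). The remaining marker, Cela2a, was below the filter and its mean went the other way, 0.173 FPKM in BT and 0.0449 FPKM in HFD. Cela1 passed only without HFD replicate 3 among the fits that left out a library (highest 0.0932), and after removal of the length and GC trend its change was -0.38 (adjusted p = 0.162). The summed level of 5 stellate cell markers was also lower in every BT library, at 66.5 to 85.1 FPKM in BT and 88.0 to 131 FPKM in HFD, with Lrat listed at 0 throughout and none of the 4 tested passing. The part of either marker list in the Slc39a5 result was not tested.

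Slc39a14 encodes ZIP14, which imports zinc, manganese and iron that is not bound to transferrin (ENSMUSG00000022094, chromosome 14, 70303469 to 70351425, minus strand). It was at 79.0, 76.0 and 69.9 FPKM in the BT libraries and at 43.4, 40.7 and 81.1 FPKM in the HFD libraries. HFD replicate 3 was the highest of all 6 libraries, and the other HFD libraries were below all of BT. The mean was 75.0 ± 4.65 FPKM in BT and 55.1 ± 22.6 FPKM in HFD (SD, n = 3 each). The log2 change was 0.51 ± 0.23 (95% interval -0.03 to 1.04, adjusted p = 0.17). Without HFD replicate 3, the library with Alb listed at 0, it rose by 0.82 (adjusted p = 0.0123). With all libraries kept and the length and GC trend removed, its change was 0.33 (adjusted p = 0.327).

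Slc39a8 encodes ZIP8, a close relative of ZIP14 that takes up manganese and zinc (ENSMUSG00000053897, chromosome 3, 135825279 to 135888572). It was at 5.69, 5.64 and 6.49 FPKM in the BT libraries and at 6.50, 5.13 and 6.43 FPKM in the HFD libraries. The BT values lay within the HFD range, and this was the steadiest member, with a 1.27-fold range over the 6 libraries. The log2 change was -0.01 ± 0.13, and its 95% interval of -0.30 to 0.27 leaves out a change of the size seen for Mt1 (adjusted p = 0.954). The sign of so small a difference turned on rescaling to TPM (0.067) and when any of 4 libraries was left out.

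**Figure D3:**
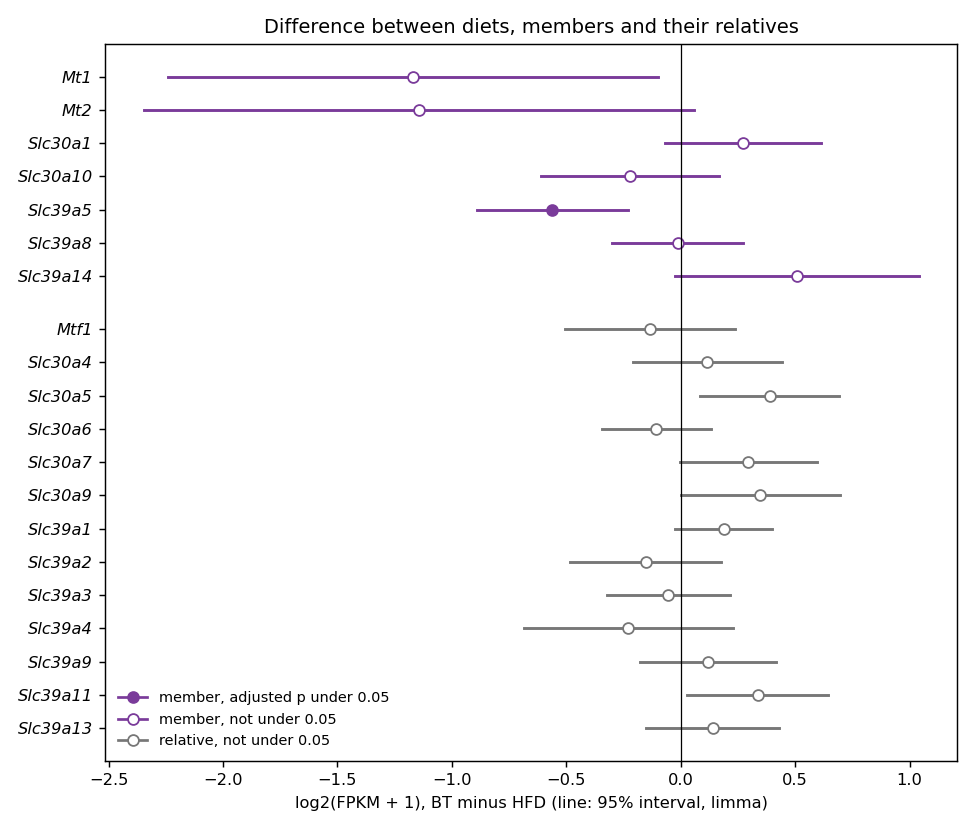
Log2 change (BT minus HFD, horizontal axis) of the 7 members and of 13 relatives tested, with limma's 95% interval as a line. A filled point marks an adjusted p under 0.05, which Slc39a5 alone reached, and the widest intervals are those of Mt1 and Mt2.

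The variation among libraries differed between diets and members. Mt1 had a coefficient of variation of 36.2% in BT and 64.0% in HFD, Mt2 one of 48.1% in BT and 59.1% in HFD, and Slc39a14 one of 6.20% in BT and 41.0% in HFD. The 3 HFD libraries did not rank alike for these genes: HFD replicate 2 was highest for Mt1 and lowest for Slc39a14, and HFD replicate 3 was highest for Slc39a14. Among the 21 member pairs, Slc30a10 and Slc39a8 had the second highest correlation (r = 0.88, exact permutation p = 0.0458, 0.481 adjusted over the pairs), with a rho of 0.89 (exact permutation p = 0.0333) and an r of 0.90 without HFD replicates 1 and 3. No pair passed after adjustment.

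Other members of the families were taken from a list of 23 genes, of which 13 were tested. None passed in either direction by limma, 2 had an unadjusted p under 0.05, and the median log2 change was 0.12, with 8 positive and 5 negative. The 2 with the smallest p were Slc30a5, which loads zinc into the early secretory pathway, with a change of 0.39 (adjusted p = 0.0853), and Slc39a11, an importer gene, with 0.34 (adjusted p = 0.125). Mtf1, which encodes the metal-sensing factor itself, differed by -0.13 (adjusted p = 0.592), at 3.56, 3.82 and 3.67 FPKM in the BT libraries and 3.01, 4.63 and 5.01 FPKM in the HFD libraries. Mt3 and Mt4 are listed at 0 in all 6 libraries. The other 8 genes below the filter of a mean of 1 FPKM were Slc30a2, Slc30a3, Slc30a8, Slc39a6, Slc39a7, Slc39a10, Slc39a12 and Tmem163.

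Within its family of 14 importer genes Slc39a14 held the largest share of summed FPKM, at 47.6%, 45.6% and 44.4% in the BT libraries and 34.5%, 33.6% and 48.3% in the HFD libraries. HFD replicate 3 again lay with, and above, the BT libraries. Slc39a5 held 0.748%, 0.947% and 0.712% in the BT libraries and 1.72%, 1.78% and 1.75% in the HFD libraries, which do not overlap. The shares of Slc39a6 and Slc39a10, both below the filter, were likewise lower in every BT library than in any HFD library. Slc39a8 held 3.65% ± 0.414 in BT and 4.41% ± 0.684 in HFD (SD, n = 3 each).

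Among the 10 exporter genes Slc30a9 and Slc30a5 had the highest levels. By the mean over the 6 libraries Slc30a1 ranked next, although Slc30a6 exceeded it in HFD replicate 2 (12.7% against 11.4%). Slc30a1 held 11.8% ± 0.683 of the summed FPKM in BT and 11.6% ± 0.641 in HFD (SD, n = 3 each). Slc30a10 held 4.55%, 5.36% and 5.36% in the BT libraries and 8.29%, 6.63% and 7.75% in the HFD libraries, which do not overlap. Shares of a sum are relative, so a lower share may come from the other genes, and they were not tested.

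**Figure D4:**
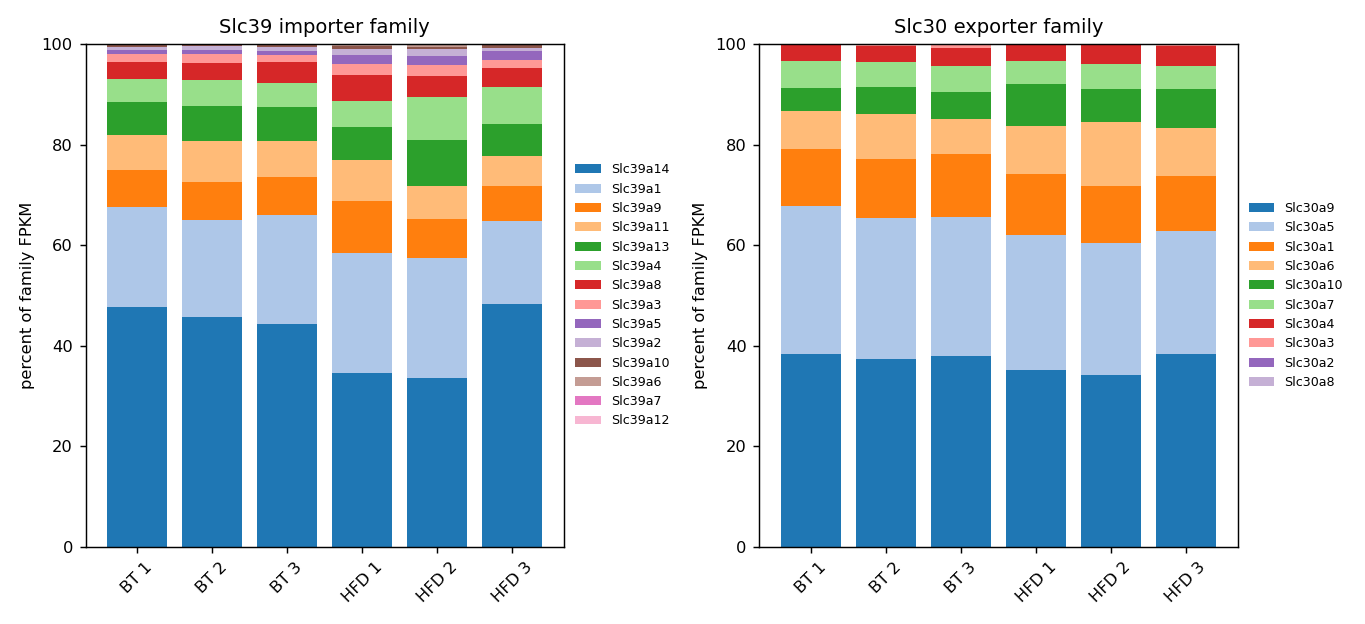
Share of the summed FPKM of 14 Slc39 genes (left) and 10 Slc30 genes (right) held by each gene, in percent, with 1 bar per library, BT left of HFD. Slc39a14 holds 44.4% to 47.6% in the BT libraries and 33.6% to 48.3% in the HFD libraries. Slc30a10 and Slc30a6 each hold a smaller share in every BT library than in any HFD library, and Slc30a5 a larger one.

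Copper and manganese handling genes were counted because metallothioneins bind copper and because Slc30a10, Slc39a8 and Slc39a14 carry manganese. Of 18 tested, 3 fell and 2 rose, which is 27.8% called, against 13.3% of all genes tested. The copper chaperone gene Atox1, whose protein hands copper to the exporter encoded by Atp7b, stood at 138 ± 10.6 FPKM in BT and 297 ± 71.6 FPKM in HFD, a change of -1.07 ± 0.17 (adjusted p = 0.0105). The genes for the copper carriers of cytochrome oxidase, Sco2 and Cox17, fell by 0.96 (adjusted p = 0.00676) and 0.74 (adjusted p = 0.0198). Atp7b rose by 0.46 (adjusted p = 0.0325), to 6.36 ± 0.236 FPKM in BT against 4.36 ± 0.381 FPKM in HFD, and the metalloreductase gene Steap3 rose by 0.45 (adjusted p = 0.0418). Of these 5 genes only Sco2 passed whichever of the 6 libraries was left out. Atox1 missed the threshold without BT replicate 1 (adjusted p = 0.053) and Cox17 without any one of the BT replicates (highest 0.0821), and Atp7b and Steap3 passed only without HFD replicate 3 (highest 0.121 and 0.141). The transcripts of Atox1 and Sco2 are short, 541 and 1250 bases. After removal of the length and GC trend they changed by -0.61 (adjusted p = 0.0162) and -0.65 (adjusted p = 0.0107), whereas Atp7b and Steap3 then missed the threshold. Cox17 then changed by -0.88 (adjusted p = 0.0337). That correction rests on 3690 bases, its longest protein-coding transcript, and which of its transcripts prevails was not tested.

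Glucocorticoid response genes were counted because these hormones induce Mt1 and Mt2. The list, like the others, was chosen with earlier results of these data known. Of 17 tested, 5 fell and none rose, 29.4% against 13.3% of all genes tested in either direction and 7.33% as lower. They were Cdkn1a, a cell cycle inhibitor gene (-1.84, adjusted p = 0.0134), Mfsd2a, a lysolipid transporter gene (-1.30, adjusted p = 0.0282), Angptl4, a lipase inhibitor gene (-0.72, adjusted p = 0.027), Tsc22d3, which encodes the glucocorticoid-induced leucine zipper (-0.82, adjusted p = 0.0316), and Ddit4, an inhibitor gene of mTORC1 signalling (-0.81, adjusted p = 0.0455). Each missed the threshold without BT replicate 1, Cdkn1a only there, and the highest adjusted p was 0.0543 to 0.122. After removal of the length and GC trend Tsc22d3 (adjusted p = 0.0515) and Ddit4 (adjusted p = 0.0939) missed it as well. Of the 12 that did not pass, Dusp1 had a change of -1.07 (adjusted p = 0.197), Zbtb16 one of -0.94 (adjusted p = 0.0674) and Lcn2 one of -0.71 (adjusted p = 0.388). Per1 had a change of 0.51 (adjusted p = 0.238), Fkbp5 one of 0.17 (adjusted p = 0.508) and Tat one of 0.00 (adjusted p = 0.997).

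Of 23 acute phase and interleukin-6 response genes tested, 2 fell and none rose. That is 8.70% called, against 13.3% of all genes tested in either direction and 7.33% as lower. Cebpb, a transcription factor gene of the acute phase, fell by 1.25 (adjusted p = 0.00561) and Orm1, an acute phase glycoprotein gene, by 0.54 (adjusted p = 0.0485). Cebpb passed whichever library was left out, but not with the length and GC trend removed (-0.63, adjusted p = 0.0724). Orm1 missed without BT replicates 1 or 2 or HFD replicates 2 or 3 (highest 0.177), and its change was -0.20 after removal of the length and GC trend (adjusted p = 0.397). Stat3 and Il6ra, through which interleukin-6 acts, differed by 0.48 (adjusted p = 0.066) and 0.61 (adjusted p = 0.115).

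The library order of Mt1 was compared with each of 70 listed genes tested outside the members, and no relation passed after adjustment over the 70. The highest positive r was that with Hp, the haptoglobin gene of the acute phase, with an r of 0.93 (exact permutation p = 0.00833, adjusted 0.227) and a rho of 0.83 (exact permutation p = 0.0583). Hp stood at 2329, 2621 and 2935 FPKM in the BT libraries and at 2488, 3987 and 3294 FPKM in the HFD libraries, so that HFD replicates 2 and 3 were again highest. Without those 2 libraries r was 0.47, so the relation rests on them. Slc39a11 ran opposite to Mt1, with an r of -0.93 (exact permutation p = 0.00694, adjusted 0.227), a rho of -0.94 (exact permutation p = 0.0167) and an r of -0.77 without those 2 libraries.

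Over all genes tested, the 3 named genes with the pattern most like Mt1 over the 6 libraries were Supv3l1, which encodes a mitochondrial RNA helicase, the inflammatory caspase gene Casp4, and Tlcd1, with r of 1.00, 1.00 and 0.99. They stood lower than Mt1, Casp4 for example at 1.63, 1.50 and 2.09 FPKM in the BT libraries and at 1.804, 3.38 and 2.69 FPKM in the HFD libraries. The 3 most like Slc39a5 were Hand2, a basic helix-loop-helix factor gene, Nsmce3, of the SMC5-SMC6 complex, and Qprt, an enzyme gene of NAD synthesis, with r of 1.00, 0.99 and 0.99. With so few libraries high values are common: 57 genes had an r over 0.95 with Mt1 and 50 with Slc39a5.

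**Figure D5:**
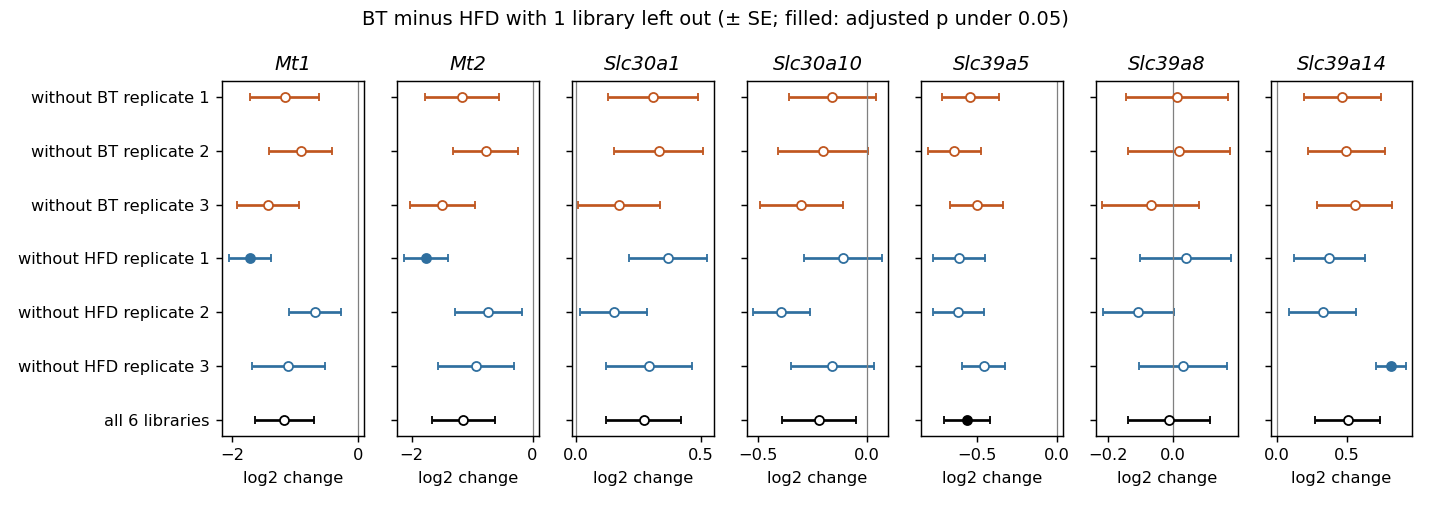
Log2 change ± SE of each member (1 panel each, horizontal axes differ) with 1 library left out, and with all 6 libraries in the lowest row. Filled points have an adjusted p under 0.05: Mt1 and Mt2 without HFD replicate 1, Slc39a14 without HFD replicate 3, and Slc39a5 with all 6 libraries.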

How the data were processed

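The deposited table gives FPKM for 23474 genes, made by the authors, and per the submitters' processing notes CASAVA 1.8.2, STAR 2.4.0 and Cufflinks 2.1.1 were used, with no role or order given. Build, annotation and strandedness: not given in the sources used here. Total RNA was made into TruSeq mRNA libraries, per the labels' protocols. Groups came from the sample titles. GENCODE M21 (GRCm38, perhaps not the authors' build) supplied symbols for 22671 identifiers, with positions and transcript lengths (longest protein-coding transcript), and promoters came from RefSeq (GRCm38.p6).

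A pseudocount of 1 was added, log2 was taken, and the 10476 genes averaging 1 FPKM or more were compared with limma 3.58.1 in R 4.3.3 (variance trend, two-sided, Benjamini-Hochberg over all genes tested, threshold 0.05), which was checked on simulated data. Depth was taken from the value of 1 fragment in genes with 1 transcript over 1000 bases, as the median of FPKM times kilobases between 0.03 and 0.1. The members and lists were chosen with earlier results of these data known. The text names all members, every listed gene that passed (or the 2 with the smallest p), and the 3 genes most correlated with Mt1 and with each member that passed. Cebpd is not analysed here. Mtf1, Fkbp5, Tat, Dusp1, Zbtb16, Lcn2, Per1, Stat3, Il6ra, Hp, Slc30a6 and the markers were named after their values were seen. Alternatives were another pseudocount, other filters, scalings and variance models, a replicate block, removal of the length and GC trend, and leaving out each library. Figures used matplotlib 3.10.9.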

Additional observations from a re-analysis of the deposited data

How the results depend on the processing

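The number of members called, 1 with the settings reported, was 0 without a filter on low values, with a filter of 5 FPKM (which removes Slc39a5), on rescaling to TPM and after removal of the length and GC trend, and 0 to 2 with 1 library left out. The direction of Slc39a8, which did not pass, turned on rescaling to TPM (0.067), and without BT replicate 1 (0.013), BT replicate 2 (0.019), HFD replicate 1 (0.039) or HFD replicate 3 (0.031), over a range of -0.107 to 0.039 with 1 library left out. The other 6 members kept their direction in all alternatives where they were tested. The count over all genes was 545 without a filter and 814 after removal of that trend, and 173 to 1536 with 1 library left out. With median-of-ratios scaling 459 genes were higher and 862 lower, and on TPM 614 were higher and 557 lower, against 630 and 768; without HFD replicate 3 they were 855 and 681. Zinc relatives had 0 called, 1 with a replicate block and 0 with 1 library left out. Copper and manganese genes had 5, 2 without a filter, 8 with the block and 1 to 8 with 1 library left out. Glucocorticoid genes had 5, 1 without a filter, 3 with a filter of 5 FPKM, on TPM or with the trend removed, and 0 to 5 with 1 library left out. Acute phase genes had 2, 1 without a filter, on TPM or without a variance trend, 0 with the trend removed, 7 with the block and 1 to 4 with 1 library left out. The causes were not tested. Replicate numbers were not taken as pairs, since same-numbered deviations correlated at 0.163, 0.0972 and 0.147, although each library correlated best with its own number; the block gave 1808 calls over all genes and changed no member's call. Fits that left out a library had 2 libraries in 1 diet. Counts were not analysed here, so counting error, largest for Slc39a5, could be gauged only roughly.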
